A study of Mus musculus with 6 samples.

Results

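The miRNAs described here are 10 that are often taken as reference miRNAs when vesicle or serum RNA is measured by RT-qPCR: mmu-miR-191-5p, mmu-miR-425-5p, mmu-miR-103-3p, mmu-miR-107-3p, mmu-miR-423-5p, mmu-miR-423-3p, mmu-miR-484, mmu-miR-320-3p, mmu-miR-186-5p and mmu-miR-361-3p. They are listed by name for that use, and no measured value enters the rule, although the list was drawn up with earlier results of these data known; 9 of them were among the 810 miRNAs counted, while mmu-miR-361-3p is not analysed here. The RNA came from small extracellular vesicles (sEV) that cochlear explants of postnatal day 3 (P3) mice released into medium made with sEV-free serum. Explants given 50 µM cisplatin for 48 h, a model of the damage that this chemotherapy drug does to the inner ear, yielded Cis-sEV, and explants given the same volume of PBS yielded Ctrl-sEV. Each group had 3 biological replicates, and each replicate pooled the sEV of about 80 explants. The question was whether each reference miRNA held the same level in both groups and among the replicates. Levels were taken first as CPM (reads after each library is scaled to 1000000 miRNA reads) and then as CPM divided by a TMM factor. That factor rescales the libraries on the assumption that most miRNAs are level, which need not hold here.

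A mature miRNA is a short RNA cut from one arm of a hairpin and loaded into an Argonaute protein, and it finds its target mRNAs mainly through its seed, the bases near its 5′ end. RT-qPCR gives the amount of a miRNA only relative to something else in the same RNA, so a reference miRNA is expected to be abundant and to stay level across the conditions compared. Vesicles lack an agreed reference of this kind, and miRNAs that are steady in cells or serum are carried over to vesicles of other sources.

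The mature sequences are given because they show which reference miRNAs share a seed and could share reads. Each is written 5′ to 3′ with the seed, bases 2 to 8, in capitals. The RefSeq set on GRCm38.p6 held 8 of the 9 with the same sequence as the deposited table, and mmu-miR-320-3p is printed from that table.
mmu-miR-191-5p: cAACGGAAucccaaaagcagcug
mmu-miR-425-5p: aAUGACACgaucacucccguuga
mmu-miR-103-3p: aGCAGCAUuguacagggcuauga
mmu-miR-107-3p: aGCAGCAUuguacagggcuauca
mmu-miR-423-5p: uGAGGGGCagagagcgagacuuu
mmu-miR-423-3p: aGCUCGGUcugaggccccucagu
mmu-miR-484: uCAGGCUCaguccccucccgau
mmu-miR-320-3p: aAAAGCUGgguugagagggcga
mmu-miR-186-5p: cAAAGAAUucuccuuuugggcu
Only mmu-miR-103-3p and mmu-miR-107-3p share a seed among these 9, and the whole molecules differ by G22C, with positions counted from 1 at the 5′ end of mmu-miR-103-3p. A read trimmed before that base fits both, so the split of reads between them is uncertain.

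The libraries held between 1722359 and 1794175 miRNA reads in Cis-sEV and between 528952 and 718597 in Ctrl-sEV, so a miRNA with 3 reads stood at 1.67 to 1.74 CPM in Cis-sEV and at 4.17 to 5.67 CPM in Ctrl-sEV. Replicates of Ctrl-sEV also differed more from each other, with a biological coefficient of variation of 1.55 against 0.369 in Cis-sEV. Of the 810 miRNAs, 353 had enough reads to be tested, among them 8 of the reference miRNAs; mmu-miR-107-3p did not. The hair cell miRNAs of the miR-183 cluster, which mark the source tissue, had reads in every library for 3 of 3, and their summed level was 59073 to 81525 CPM in Cis-sEV and 54984 to 55757 CPM in Ctrl-sEV. On TMM-scaled CPM these sums overlapped, at 50048 to 73377 and 55946 to 73189, and the members differed, with a log2 fold change of 2.08 for mmu-miR-96-5p, 0.18 for mmu-miR-182-5p and -0.49 for mmu-miR-183-5p. Of 4 erythrocyte miRNAs, 3 had reads in every library. In bulk vesicle RNA, vesicles from fewer cells of a type and less of a miRNA per cell cannot be told apart. The edgeR p-values used below weigh the difference between the groups, of 3 libraries each, against a spread between replicates that is fitted over both groups together. As the groups differed in that spread, the fitted value need not describe either group. Counting intervals cover counting error only.

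Together the 9 counted reference miRNAs took 2.78% ± 0.230 of miRNA reads in Cis-sEV and 1.97% ± 0.282 in Ctrl-sEV (SD, n = 3 each), and the ranges, 2.55% to 3.01% and 1.64% to 2.15%, did not overlap. This sum mainly followed mmu-miR-191-5p, which had a Cis-sEV mean of 18727 CPM and a Ctrl-sEV mean of 9278 CPM. The next most abundant, mmu-miR-423-3p and mmu-miR-320-3p, had lower mean CPM in Cis-sEV, as did mmu-miR-423-5p. The remaining members, all scarcer than mmu-miR-320-3p, had higher means there. The larger share was therefore not a rise of the set as a whole, and its members moved in different directions. By edgeR's quasi-likelihood test with TMM factors and Benjamini-Hochberg adjustment over all 353 miRNAs, with calls made at adjusted p up to 0.05 and a log2 fold change of 1 or more in either direction, mmu-miR-186-5p was higher in Cis-sEV, mmu-miR-423-5p and mmu-miR-320-3p were lower, and 5 were not called. That is 1 of 8 higher against 23.5% of all tested miRNAs, and 2 of 8 lower against 6.52%. The higher calls include miRNAs that had enough reads to be tested only through Cis-sEV, such as mmu-miR-186-5p. For these a call could only be higher. A missed call does not show a level miRNA, so the 95% interval of the fold change was asked to lie wholly between -1 and 1 on the log2 scale. Only mmu-miR-423-3p met this, 1 of 8 against 8.50% of all tested miRNAs. It met it in 10 of 16 alternatives and mmu-miR-191-5p in 6, and the other 6 met it in none. The median log2 fold change of the 8 was 0.69, beside 0.44 over all tested miRNAs.

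**Figure D1:**
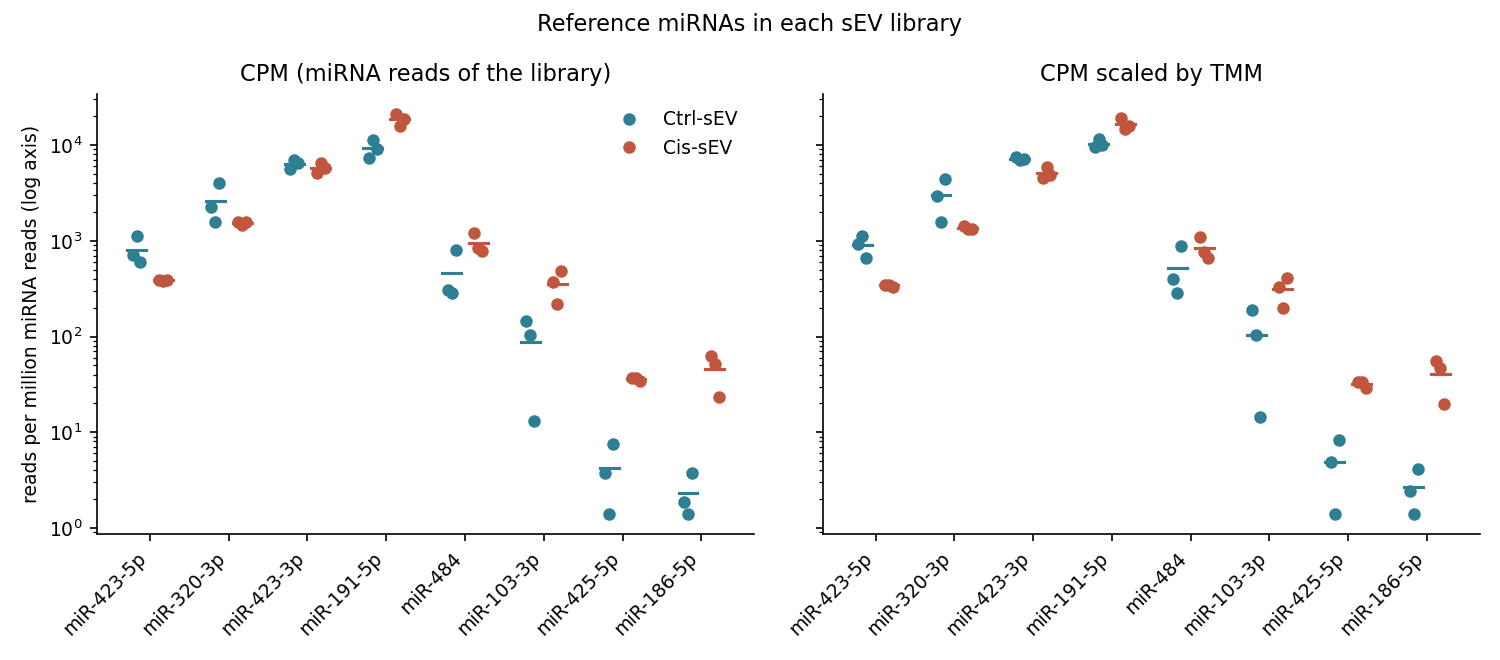
CPM (left) and TMM-scaled CPM (right) of the 8 tested reference miRNAs in each of the 6 libraries, as points on a log axis, with a short line at each group's mean. On the left, mmu-miR-423-3p lies between 5055 and 6955 CPM in both groups, while mmu-miR-186-5p lies at 23.4 to 62.0 CPM in Cis-sEV and at 1.39 to 3.78 CPM in Ctrl-sEV.

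mmu-miR-191-5p, cut from a hairpin that lies beside that of mmu-miR-425-5p, was the most abundant reference miRNA, 18th of all miRNAs by mean CPM in Cis-sEV and 23rd in Ctrl-sEV. Its level was 21366, 15980 and 18834 CPM in Cis-sEV replicates 1 to 3 and 7314, 11421 and 9099 CPM in Ctrl-sEV replicates 1 to 3. Every Cis-sEV library was above every Ctrl-sEV library, by a ratio of mean CPM of 2.02, and this held after TMM scaling, at 16584 ± 2396 against 10334 ± 988 (SD, n = 3 each). The log2 fold change was 0.68 (SE 0.16, 95% interval 0.31 to 1.05, edgeR adjusted p = 0.0148), under the fold required for a call, and its sign turned to -0.34 when the libraries were scaled by the reference miRNAs themselves. With total miRNA reads as the scale it was 1.01 and was called higher (edgeR adjusted p = 0.00843), the lowest in a range up to 0.336 over all alternatives. As a normalizer on TMM-scaled levels it would thus have differed by a ratio of 1.60 between the groups.

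The hairpins of both, Mir191 and Mir425, lie 384 bases apart on the plus strand of chromosome 9 (GRCm38, chr9:108568319-108568392 and chr9:108568777-108568861), in an exon of the long noncoding RNA 4833445I07Rik. The neighbour mmu-miR-425-5p was far scarcer, with 66, 63 and 61 reads in Cis-sEV and 2, 1 and 4 reads in Ctrl-sEV. In CPM that was 36.8, 36.6 and 34.0 against 3.71, 1.39 and 7.56, so the groups did not overlap, but 2 of the 3 Ctrl-sEV libraries held fewer than 3 reads. The Cis-sEV replicates lay within a coefficient of variation of 4.39%, under the 12.6% that counting alone would give. Summed over each group, the 190 and 7 reads gave a ratio of 9.14 after division by the summed miRNA reads (95% exact Clopper-Pearson interval 4.35 to 23.0). mmu-miR-425-5p had enough reads to be tested only through Cis-sEV, so a call could only be higher. The edgeR log2 fold change was 2.71 (SE 0.88, 95% interval 0.63 to 4.80, adjusted p = 0.0510) and missed the threshold. It was called without Ctrl-sEV replicate 3 (edgeR log2 fold change 3.52, adjusted p = 0.0295) and with total reads as the scale (3.07, adjusted p = 0.0317), in a range of adjusted p from 0.0199 to 0.482 over all alternatives.

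Within a library, mmu-miR-191-5p outnumbered mmu-miR-425-5p by 580, 437 and 554 to 1 in Cis-sEV and by 1974, 8207 and 1203 to 1 in Ctrl-sEV. These ratios need no scaling, and the groups did not overlap, with a difference of -1.76 in log2 (reads + 1). An exact permutation test, two-sided, gave p = 0.1, the smallest that 3 against 3 libraries allow, and 0.15 after Benjamini-Hochberg adjustment over 3 ratios. With 10 reads added in place of 1 the difference was 0.031. That addition is larger than the read count of mmu-miR-425-5p in any Ctrl-sEV library and shrinks the difference by itself, so it cannot decide what the difference rests on.

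The opposite arms of the same hairpins add a comparison chosen after the values were seen and not tested. mmu-miR-191-3p had 680, 505 and 569 reads in Cis-sEV and 153, 350 and 279 in Ctrl-sEV. The ratio of the 5p to the 3p arm was 56.3, 54.5 and 59.4 in Cis-sEV and 25.8, 23.4 and 17.3 in Ctrl-sEV, so the groups stood apart by a factor of 2.60 on the log2 (reads + 1) scale. In the edgeR fit the log2 fold change of mmu-miR-191-3p was -0.71 (95% interval -1.68 to 0.25, adjusted p = 0.261), against 0.68 for its partner. For Mir425 the 3p arm had 210, 106 and 103 reads in Cis-sEV and 1, 1 and 3 in Ctrl-sEV, and was called higher (edgeR log2 fold change 4.37, adjusted p = 0.0370). This arm, too, had enough reads to be tested only through Cis-sEV, so a call could only be higher.

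Both arms of Mir423, a hairpin in an intron of Nsrp1 on the minus strand of chromosome 11 (GRCm38, chr11:77078064-77078172), are used as references. The 3p arm was the steadier. mmu-miR-423-3p stood at 5055, 6481 and 5750 CPM in Cis-sEV and at 5684, 6955 and 6520 CPM in Ctrl-sEV, 37th and 32nd of all miRNAs by mean CPM. The groups overlapped, the ratio of mean CPM was 0.902, and the coefficient of variation was 12.4% and 10.1%. After TMM scaling the groups separated, at 4550, 5906 and 4872 in Cis-sEV and 7467, 6979 and 7119 in Ctrl-sEV. The log2 fold change was -0.49 (SE 0.15, 95% interval -0.85 to -0.14, edgeR adjusted p = 0.0407), past the p threshold but within the fold allowed, and -0.15 (95% interval -0.51 to 0.21) with total reads. It was the only reference miRNA with an interval inside -1 to 1 under total reads too, where 5.95% of all tested miRNAs had one, and its adjusted p ranged from 1.28e-05 to 0.542 over the alternatives. The interval reached past -1 with the upper quartile as the scale (-1.09 to -0.34), without Cis-sEV replicate 1 (-1.08 to -0.027) and without Cis-sEV replicate 2 (-1.08 to -0.33).

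mmu-miR-423-5p had 690, 656 and 702 reads in Cis-sEV and 385, 804 and 317 in Ctrl-sEV. This was the one tested reference miRNA whose raw reads overlapped between the groups; for the other 7 the lowest Cis-sEV read count was above the highest of Ctrl-sEV, as it was for 71.4% of all tested miRNAs in these libraries of unequal depth. In CPM the 3 Cis-sEV libraries, at 385, 381 and 391, had a coefficient of variation of 1.35%, against 3.83% from counting alone, and all lay below the 713, 1119 and 599 CPM of Ctrl-sEV. Its log2 fold change was -1.40 (SE 0.33, 95% interval -2.19 to -0.62, edgeR adjusted p = 0.0168), so it was called lower, by a ratio of mean TMM-scaled CPM of 0.378. The call was lost in 7 of 16 alternatives. These were without any 1 of the Cis-sEV replicates or without Ctrl-sEV replicate 2 (edgeR adjusted p of 0.0555 or more), with total reads (log2 fold change -1.07, edgeR adjusted p = 0.0640), with no filter on low counts (edgeR adjusted p = 0.0881) and with the replicate block (edgeR adjusted p = 0.161). The adjusted p of mmu-miR-423-5p ranged from 1.91e-05 to 0.161 over all alternatives. Its log2 fold change stayed at -1.07 or lower in all 16.

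The arm ratio of Mir423 needs no scaling. There were 0.0762, 0.0588 and 0.0680 reads of the 5p arm for each read of the 3p arm in Cis-sEV, and 0.125, 0.161 and 0.0919 in Ctrl-sEV. The groups did not overlap and differed by -0.87 in log2, or 1.83-fold (exact permutation test, two-sided, p = 0.1, the smallest possible, and 0.15 after adjustment over 3 ratios). The 5p arm was thus lower relative to its own partner strand in each Cis-sEV library.

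mmu-miR-320-3p comes from a hairpin that is processed without Drosha, the nuclease that frees most miRNA hairpins, and lies 63 bases from Polr3d, which is read from the opposite strand (GRCm38, chr14:70443510-70443591, plus strand). Its level was 1570, 1471 and 1585 CPM in Cis-sEV and 2245, 1575 and 4051 CPM in Ctrl-sEV. The Cis-sEV libraries lay close together, with a coefficient of variation of 4.02%, and the Ctrl-sEV libraries did not, with 48.8%; Ctrl-sEV replicate 2 fell among the Cis-sEV values. On the TMM scale the groups did not overlap, at 1340 to 1413 against 1581 to 4423. The call as lower (log2 fold change -1.13, SE 0.36, 95% interval -1.98 to -0.28, edgeR adjusted p = 0.0478) was just past the threshold and was lost in 11 of 16 alternatives, in which the adjusted p ranged up to 0.169. Among the single libraries left out, Cis-sEV replicates 1, 2 and 3 and Ctrl-sEV replicates 1 and 3 each ended it, and without Ctrl-sEV replicate 3 the log2 fold change was -0.59 (edgeR adjusted p = 0.115).

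Markers of blood cells were also lower in Cis-sEV, but only mmu-miR-423-5p followed them among the Ctrl-sEV replicates. In Ctrl-sEV replicates 1 to 3, mmu-miR-451a stood at 2168, 2733 and 1339 CPM and mmu-miR-423-5p at 713, 1119 and 599 CPM. mmu-miR-320-3p had the reverse order there, with 2245, 1575 and 4051 CPM. The summed level of the 4 erythrocyte miRNAs was 1158 to 1337 CPM in Cis-sEV and 1639 to 3604 CPM in Ctrl-sEV. By edgeR, mmu-miR-451a had a log2 fold change of -1.15 (adjusted p = 0.0219) and mmu-miR-486a-5p one of -3.47 (adjusted p = 0.0111), while mmu-miR-486b-5p, which has the same mature sequence as the latter, missed the threshold at -3.31 (adjusted p = 0.0618). mmu-miR-144-3p had 2 reads in Cis-sEV replicate 1 and 0 in the other 5 libraries. The part of such RNA in the levels of mmu-miR-423-5p and mmu-miR-320-3p was not tested.

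mmu-miR-484, whose hairpin overlaps an exon of Marf1 on the opposite strand (GRCm38, chr16:14159626-14159692, plus strand) and which is known to restrain the mitochondrial fission protein Fis1, was the one tested reference miRNA whose groups overlapped both in CPM and on TMM-scaled CPM. It stood at 1217, 842 and 774 CPM in Cis-sEV and at 304, 287 and 803 CPM in Ctrl-sEV. Ctrl-sEV replicate 3 lay among the Cis-sEV libraries, and the other two Ctrl-sEV libraries lay well below them. Its log2 fold change was 0.69 (SE 0.49, 95% interval -0.46 to 1.84, edgeR adjusted p = 0.377), an interval that reaches past 1 and so does not show a level miRNA. Without Ctrl-sEV replicate 3 it was 1.41 and called higher (edgeR adjusted p = 0.0300), and with scaling by the reference miRNAs it was -0.27, with adjusted p between 0.0300 and 0.844 over the alternatives.

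mmu-miR-103-3p and mmu-miR-107-3p, which share targets in metabolism and include the mRNA of Dicer among them, lie in introns of the pantothenate kinase genes. Mir103-1 is in Pank3 (GRCm38, chr11:35782396-35782481, plus strand), Mir103-2 in Pank2 (chr2:131288052-131288137, plus strand) and Mir107 in Pank1 (chr19:34820687-34820773, minus strand). mmu-miR-103-3p had 658, 374 and 874 reads in Cis-sEV and 78, 75 and 7 in Ctrl-sEV, or 367, 217 and 487 against 145, 104 and 13.2 CPM. Every Cis-sEV library was above every Ctrl-sEV library, but both groups were uneven, with coefficients of variation of 37.9% and 77.0%, and Ctrl-sEV replicate 3 was lowest by far. The log2 fold change of 1.61 (SE 0.96, 95% interval -0.67 to 3.88, edgeR adjusted p = 0.280) was not called, here or in any of the 16 alternatives, where the adjusted p lay between 0.113 and 0.700.

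mmu-miR-107-3p was at the limit of detection. It had 0, 11 and 6 reads in Cis-sEV and 0 in each Ctrl-sEV library, so it was not tested. Over the group, the 17 Cis-sEV reads made 3.20 CPM, at least 1.91-fold higher than the 1.68 CPM that 3 reads over all Ctrl-sEV libraries would give, yet Cis-sEV replicate 1 also had none. The log2 ratio of mmu-miR-103-3p to mmu-miR-107-3p overlapped between the groups (difference 1.91, exact permutation test, two-sided, p = 0.4, adjusted 0.4 over 3 ratios).

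mmu-miR-186-5p, from an intron of Zranb2 (GRCm38, chr3:157544279-157544349, plus strand), showed the widest difference between the groups of the 8. It had 111, 89 and 42 reads in Cis-sEV and 1, 1 and 2 in Ctrl-sEV, or 62.0, 51.7 and 23.4 against 1.85, 1.39 and 3.78 CPM. The groups were far apart, although every Ctrl-sEV library held fewer than 3 reads. The 242 and 4 summed reads gave a ratio of 20.4 on the same basis (95% exact Clopper-Pearson interval 7.85 to 75.4). It was called higher (log2 fold change 3.92, SE 0.99, 95% interval 1.57 to 6.27, edgeR adjusted p = 0.0201). mmu-miR-186-5p had enough reads to be tested only through Cis-sEV. A call could therefore only be higher, and its direction is not a separate result. The call was lost in 5 of 16 alternatives. These were without Cis-sEV replicate 1 (edgeR adjusted p = 0.0733) or 2 (edgeR adjusted p = 0.0570), with no filter on low counts (edgeR adjusted p = 0.107), with limma-voom (adjusted p = 0.159) and with the replicate block (edgeR adjusted p = 0.334). The adjusted p ranged from 0.00701 to 0.334 over all 16, and the log2 fold change stayed between 2.96 and 4.50.

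For Mir361, whose 3p arm is the listed reference, the 5p arm had 410, 332 and 310 reads in Cis-sEV and 60, 0 and 33 in Ctrl-sEV. The log2 fold change of mmu-miR-361-5p, 1.31, had an interval from -2.50 to 5.11 (edgeR adjusted p = 0.664). Of the 8 opposite arms of the reference hairpins, 6 were counted and 3 could be tested. Of these 3, mmu-miR-425-3p was called higher, beside 23.5% of all tested miRNAs called higher and 6.52% called lower. With 3 arms tested, the count says nothing about the arms as a set.

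**Figure D2:**
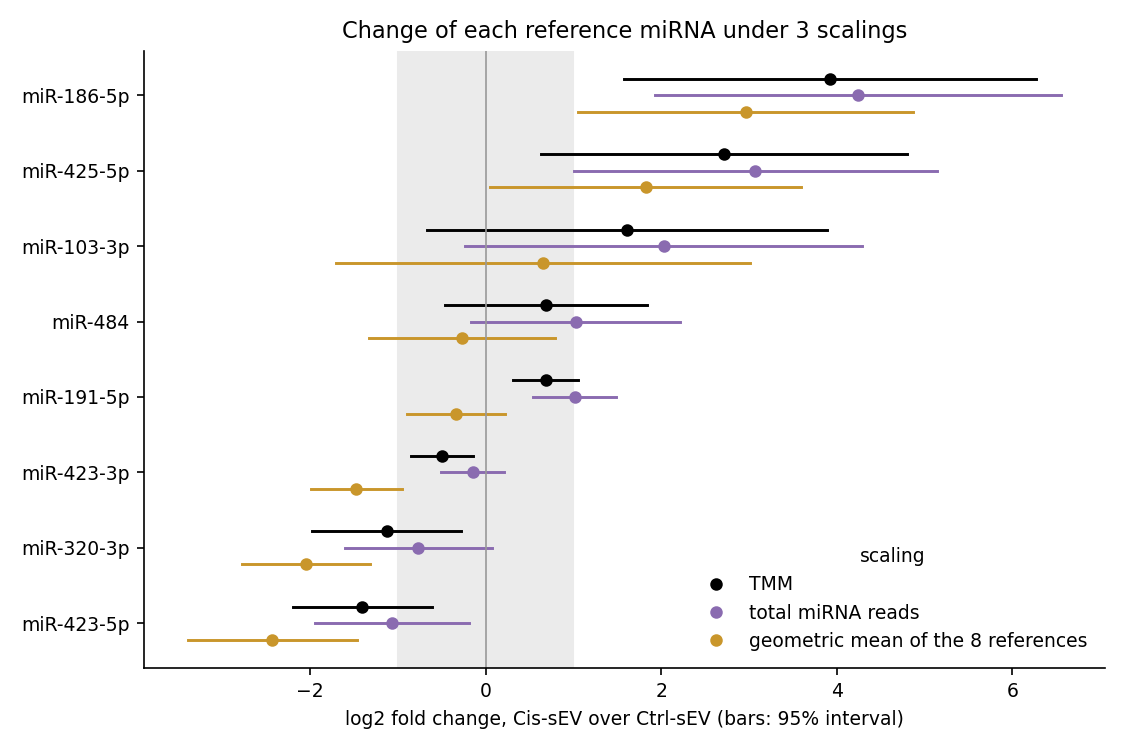
The log2 fold change, Cis-sEV against Ctrl-sEV, of the 8 tested reference miRNAs with its 95% interval from edgeR, for TMM factors, total miRNA reads and the geometric mean of the 8 reference miRNAs as the scale, with the range from -1 to 1 shaded. The interval of mmu-miR-423-3p lies in the band with TMM and total reads and past it with the geometric mean, and those of mmu-miR-103-3p, mmu-miR-425-5p and mmu-miR-186-5p span several units.

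The calls among the reference miRNAs changed with the scale. In CPM, 4 of the 8 had every Cis-sEV library above every Ctrl-sEV library, beside 45.3% of all tested miRNAs, and 1 had every one below, beside 8.78%. On TMM-scaled CPM the counts were 4, beside 37.7%, and 3, beside 12.5%; mmu-miR-423-3p and mmu-miR-320-3p joined mmu-miR-423-5p on the lower side. With total reads, edgeR called 3 higher (mmu-miR-186-5p, mmu-miR-191-5p and mmu-miR-425-5p) and 0 lower, and over all tested miRNAs 97 higher and 11 lower, where TMM gave 83 and 23. The median log2 fold change of all tested miRNAs went from 0.44 to 0.80, and to 0.33 with DESeq2 size factors, 0.22 with the upper quartile and -0.53 with the reference miRNAs as the scale.

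Scaling each library by the geometric mean of the 8 reference miRNAs, as a panel of normalizers would be used, changed the log2 fold changes of all tested miRNAs by a median of -0.94 against TMM. It turned 83 higher and 23 lower calls into 68 and 48, and 91 of the 106 miRNAs called with TMM were also called with it. This mean gives equal weight to mmu-miR-425-5p and mmu-miR-186-5p, which had 7 and 4 reads summed over Ctrl-sEV. Their log2 fold changes with TMM were 2.71 and 3.92, the largest of the 8. A panel without them was not tried. Of the panel itself, mmu-miR-186-5p was still higher, and mmu-miR-423-5p, mmu-miR-320-3p and mmu-miR-423-3p were lower. mmu-miR-191-5p was then the one with an interval inside -1 to 1.

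Over the 6 libraries, the SD of log2(CPM + 1) ranked the reference miRNAs widely. mmu-miR-423-3p had an SD of 0.17 and was 6th of the 353 tested miRNAs in order of increasing spread, mmu-miR-320-3p was 58th at 0.57, mmu-miR-191-5p 68th at 0.61, mmu-miR-423-5p 70th at 0.63 and mmu-miR-484 98th at 0.86. The last of the order were mmu-miR-425-5p, mmu-miR-103-3p and mmu-miR-186-5p, with SDs from 1.75 to 2.13. On TMM-scaled CPM mmu-miR-423-3p was 21st (0.30), mmu-miR-191-5p 36th (0.40) and mmu-miR-186-5p 155th (1.99). The median SD was 0.76 for the 8 and 2.25 for all tested miRNAs on this scale, many of which had few reads.

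Among the replicates of one group the order was another. In Cis-sEV, the SD of log2(TMM-scaled CPM + 1) was 0.038 for mmu-miR-423-5p and 0.044 for mmu-miR-320-3p, both of which differed between the groups, and 0.20 for both mmu-miR-423-3p and mmu-miR-191-5p. In Ctrl-sEV it was 0.050 for mmu-miR-423-3p and 0.14 for mmu-miR-191-5p, and from 0.40 to 1.90 for the other 6. A small spread among the treated replicates was therefore found in miRNAs that were called as different.

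**Figure D3:**
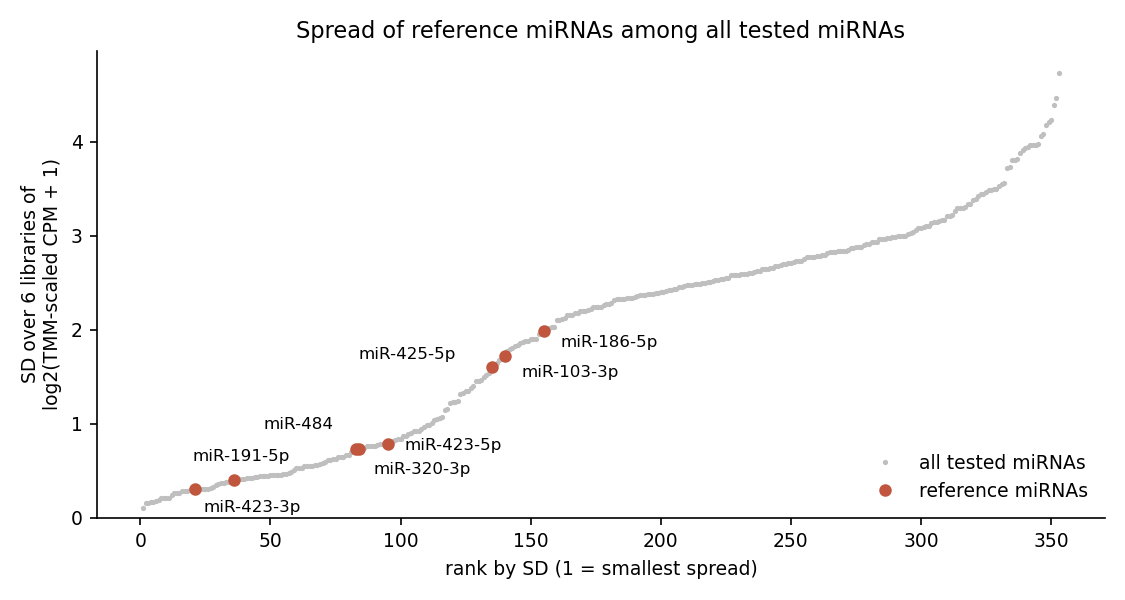
SD over the 6 libraries of log2(TMM-scaled CPM + 1) for all 353 tested miRNAs in order of increasing spread, with the 8 reference miRNAs as larger points. mmu-miR-423-3p is 21st and mmu-miR-186-5p 155th.

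Because many tested miRNAs had few reads, the 63 miRNAs with a mean of at least 1000 CPM in both groups were ranked on their own. On TMM-scaled CPM, mmu-miR-423-3p was 15th of these, mmu-miR-191-5p 25th and mmu-miR-320-3p 48th. On the same scale the least spread was found for mmu-miR-26a-5p, with an SD of 0.10. The edgeR log2 fold change of mmu-miR-26a-5p with TMM was -0.026 (95% interval -0.34 to 0.29). In CPM without TMM it stood at 40221 ± 1334 in Cis-sEV against 32136 ± 2903 in Ctrl-sEV (SD, n = 3 each), and every Cis-sEV library was above every Ctrl-sEV library. The next on TMM-scaled CPM were mmu-let-7f-5p (SD 0.16), mmu-miR-146a-5p (0.16), mmu-let-7b-5p (0.18) and mmu-miR-9-5p (0.19). In log2(CPM + 1) the SDs of these 5, in the same order, were 0.20, 0.19, 0.19, 0.14 and 0.33. The SD of mmu-miR-423-3p there was 0.17, so only mmu-let-7b-5p among the 5 varied less than it in CPM. These 5 were found by ranking the same libraries, so their small spread is a description.

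Normalizers are often judged against each other, by the SD over libraries of the log2 ratio of each pair, with 1 read added; the mean over all partners is the pairwise variation, which is small for a miRNA that keeps step with the rest. Over the 6 libraries it was 1.09 for mmu-miR-191-5p, 1.16 for mmu-miR-484, 1.21 for mmu-miR-423-3p, 1.42 for mmu-miR-320-3p, 1.47 for mmu-miR-425-5p, 1.55 for mmu-miR-423-5p, 1.72 for mmu-miR-186-5p and 1.85 for mmu-miR-103-3p. Without Ctrl-sEV replicate 3 the last of these fell to 1.04. Within Cis-sEV the range was 0.311 to 0.778 and within Ctrl-sEV 0.775 to 2.13, with the wider spread in the group with fewer reads.

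The pairs with the smallest SD were few. It was 0.55 between the arms of Mir423, 0.56 for mmu-miR-423-3p with mmu-miR-320-3p, 0.60 for mmu-miR-191-5p with mmu-miR-484 and 0.62 for mmu-miR-425-5p with mmu-miR-186-5p. Next came mmu-miR-191-5p with mmu-miR-423-3p at 0.70, although their fold changes had opposite signs with TMM, and mmu-miR-423-5p with mmu-miR-320-3p at 0.74. Some pairs with fold changes of one sign varied widely, such as mmu-miR-425-5p with mmu-miR-103-3p at 1.64 and mmu-miR-103-3p with mmu-miR-186-5p at 1.69. The SD was largest, 2.57, for mmu-miR-423-5p with mmu-miR-186-5p. Leaving out the least steady miRNA step by step removed mmu-miR-103-3p, mmu-miR-186-5p, mmu-miR-425-5p, mmu-miR-484, mmu-miR-191-5p and mmu-miR-320-3p in this order. The pair left, mmu-miR-423-5p and mmu-miR-423-3p, is cut from 1 hairpin, and its arm ratio separated the groups.

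**Figure D4:**
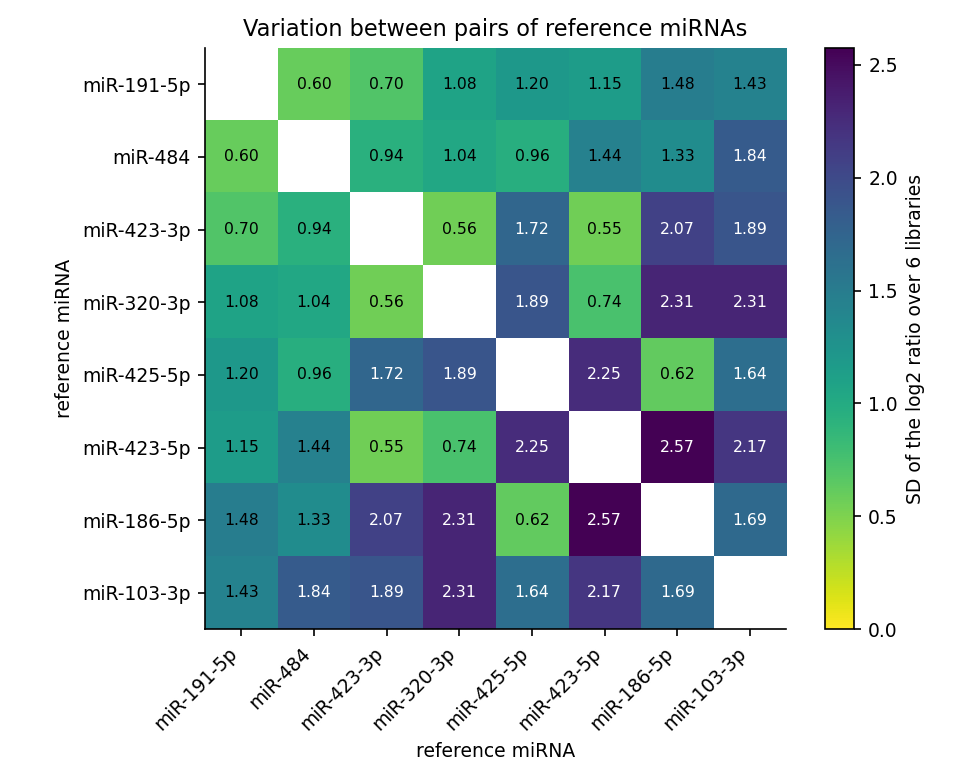
SD over the 6 libraries of the log2 ratio, with 1 read added, for every pair of the 8 tested reference miRNAs. The smallest values are 0.55 and 0.56, both with mmu-miR-423-3p, and the largest, 2.57, is between mmu-miR-423-5p and mmu-miR-186-5p.

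What a choice of reference would do was followed in the miRNAs that the study measured by RT-qPCR with the small nuclear RNA U6, which is not analysed here. Of those 8 miRNAs, 2 had at least 30 reads in every library: mmu-miR-34a-5p, a target gene of p53, and mmu-miR-25-3p, of the cluster in the Mcm7 gene. The study picked them on these samples, so their direction is not independent evidence. Its RT-qPCR, with U6 as the reference, found both to be higher in Cis-sEV. By edgeR with TMM they had log2 fold changes of 2.36 and 2.07. Relative to mmu-miR-423-5p in the same library, mmu-miR-34a-5p was 13.9-fold higher in Cis-sEV, relative to mmu-miR-320-3p 10.8-fold, to mmu-miR-423-3p 7.59-fold, to mmu-miR-191-5p 3.35-fold and to mmu-miR-484 3.05-fold, with no overlap of the groups for these 5.

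Against the remaining references the same miRNA overlapped between the groups. Its difference was 0.31 in log2 against mmu-miR-103-3p, -0.014 against mmu-miR-425-5p and -0.69 against mmu-miR-186-5p. For mmu-miR-25-3p the values ran from a log2 difference of 3.59 against mmu-miR-423-5p through 1.54 against mmu-miR-191-5p to -0.90 against mmu-miR-186-5p. The span over the 8 references was 4.48 in log2 for each. It is the gap between mmu-miR-423-5p and mmu-miR-186-5p, since the measured miRNA cancels out, and it would be the same for any miRNA. Against the geometric mean of all 8, mmu-miR-34a-5p was 3.11-fold and mmu-miR-25-3p 2.70-fold higher. The references with few Ctrl-sEV reads depend on the reads added, and with 10 in place of 1 mmu-miR-34a-5p was 1.76 higher in log2 against mmu-miR-425-5p and 1.43 against mmu-miR-186-5p.

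**Figure D5:**
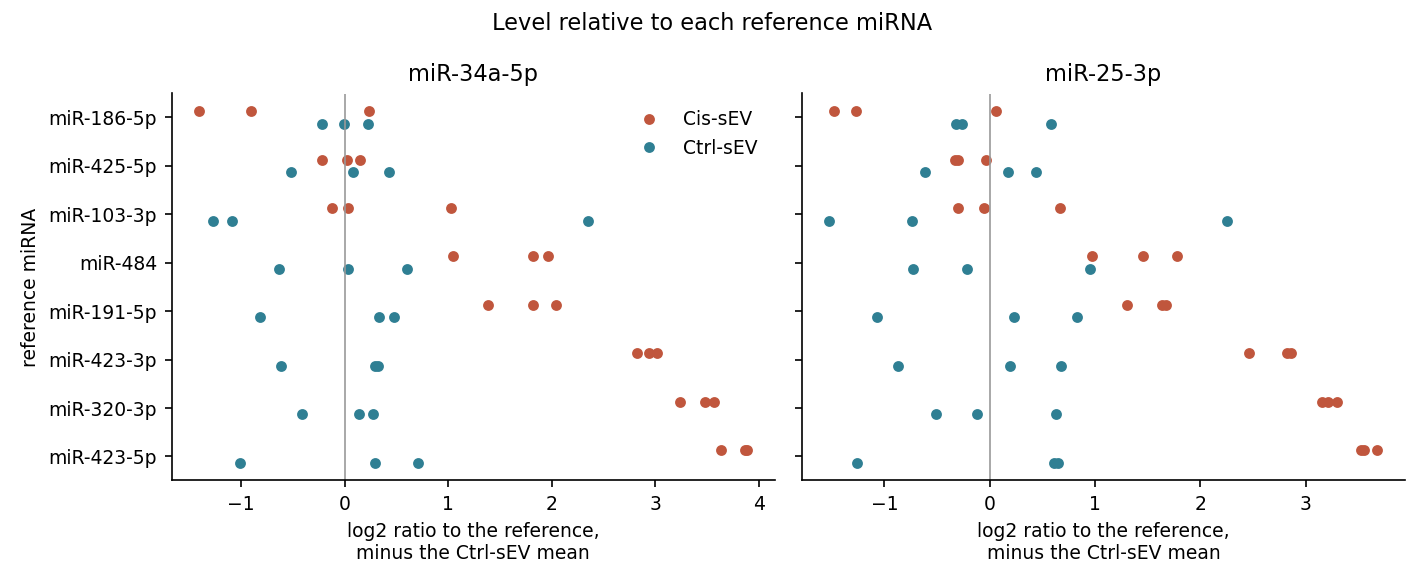
Log2 ratio of mmu-miR-34a-5p and mmu-miR-25-3p to each of the 8 reference miRNAs in every library, given relative to the Ctrl-sEV mean. Cis-sEV lies above Ctrl-sEV for 5 single references, and the mean difference of mmu-miR-34a-5p runs from 3.79 with mmu-miR-423-5p to -0.69 with mmu-miR-186-5p.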

How the data were processed

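Per the labels and the study's methods, the authors isolated RNA of 18 to 30 nt by PAGE, sequenced it on the DNBSEQ platform, aligned it to GRCm38.p6 with Bowtie2, annotated it with AASRA and cmsearch, and deposited unnormalized read counts for each mature miRNA and library. Versions of these tools are not given in the sources used here. The deposited group averages were not used. Hairpin positions come from GENCODE on GRCm38.

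Counts of all 6 libraries were fitted with edgeR 4.0.16 (R 4.3.3; TMM, filterByExpr with minimums of 10 and 15 reads, quasi-likelihood test, Benjamini-Hochberg adjustment), with no covariate. Alternatives were other scalings, no filter, DESeq2 1.42.0, limma-voom (limma 3.58.1), the replicate number as a block, 10 added reads, and each library left out. The code was tested on simulated data. Ratios and ranks were computed in Python 3.11.15 with numpy 2.4.6, pandas 2.3.3 and scipy 1.17.1, and plotted with matplotlib 3.10.9. Named miRNAs were the reference miRNAs, their opposite arms, a list of 20 other normalizers, hair cell and erythrocyte markers, the RT-qPCR set, the 5 of least spread and the nearest miRNA of each reference. Members and lists were chosen with earlier results of these data known. Arm ratios of Mir191 and Mir425 were added after seeing the data.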

Additional observations from a re-analysis of the deposited data

How the results depend on the processing

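Of 128 log2 fold changes of single reference miRNAs under 16 alternatives each, 97 kept their direction and side of the threshold, 23 lost and 6 gained a call, and 2 reversed, both with the geometric mean of the reference miRNAs as the scale (mmu-miR-191-5p -0.34, mmu-miR-484 -0.27). That scale takes in mmu-miR-425-5p and mmu-miR-186-5p, which had few Ctrl-sEV reads. The 3 calls among the reference miRNAs became 0 with no filter on low counts, where 810 miRNAs were tested, 1 with limma-voom and 0 with a replicate block, and 5 with the adjusted p alone. Leaving out 1 library at a time gave 0 to 4. The single interval inside -1 to 1 became 2 with no filter and with DESeq2, 0 with limma-voom and group weights, 0 with the replicate block, 0 with limits of 0.5, and 0 to 2 without 1 library. Which miRNA it was also changed: with the upper quartile, with the geometric mean and without Cis-sEV replicate 1 it was mmu-miR-191-5p, and mmu-miR-423-3p had such an interval in 10 of 16 alternatives. Over all tested miRNAs the 106 calls became 43 with limma-voom, 24 with the replicate block and 53 to 169 without 1 library. The correlations of same-numbered replicates, -0.049, -0.175 and -0.016, do not show a pairing, so the replicate block has only numbers behind it. Adding 10 reads in place of 1 took the mean pairwise variation from 1.43 to 0.988 and the log2 difference of the mmu-miR-191-5p to mmu-miR-425-5p ratio from -1.76 to 0.031. For the other changes the cause was not tested. The values of mmu-miR-425-5p, mmu-miR-186-5p and mmu-miR-107-3p rest on few reads, with at most 4 in a Ctrl-sEV library, and the part of depth in this was not tested.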

Other observations

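A wider list of 20 miRNAs that are also used as normalizers was measured in full. By edgeR with TMM, 1 was called higher (mmu-miR-25-3p, log2 fold change 2.07), 2 were called lower (mmu-miR-92a-3p, -1.43, and mmu-let-7d-3p, -1.27) and 17 were not called, with a median log2 fold change of 0.62. Over all tested miRNAs, 23.5% were called higher and 6.52% lower. The 95% interval lay inside -1 to 1 for 6: mmu-miR-26a-5p (-0.026), mmu-miR-532-5p (0.033), mmu-miR-16-5p (0.31), mmu-miR-652-3p (0.35), mmu-miR-23a-3p (0.64) and mmu-miR-99b-5p (-0.51); 8.50% of all tested miRNAs had such an interval. In CPM, mmu-miR-99b-5p had an SD of 0.098 over the 6 libraries in log2(CPM + 1) and was 2nd of 353. At the other end, mmu-miR-151-3p and mmu-miR-128-3p had SDs of 3.96 and 3.17 on this scale.

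For each reference miRNA, the other tested miRNA whose log2 ratio to it, with 1 read added, varied least over the 6 libraries was sought among 345. Each partner is the smallest of 345 in the same libraries, so a small SD follows from the choice and is a description. For mmu-miR-423-3p it was mmu-miR-183-5p of the hair cell cluster (SD 0.10), for mmu-miR-191-5p mmu-miR-342-3p (0.18), for mmu-miR-423-5p mmu-miR-451a (0.23) and for mmu-miR-186-5p mmu-miR-182-3p (0.28). For mmu-miR-425-5p it was mmu-miR-34a-5p (0.33), for mmu-miR-320-3p mmu-miR-181b-5p (0.36), for mmu-miR-484 mmu-miR-181d-5p (0.37) and for mmu-miR-103-3p mmu-miR-192-5p (0.66). mmu-miR-186-5p and mmu-miR-425-5p had few Ctrl-sEV reads, so their SDs depend on the read added. By edgeR with TMM, mmu-miR-182-3p had a log2 fold change of 7.48 and mmu-miR-186-5p one of 3.92, so these did not change alike between the groups.

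The mature sequences of the 8 tested reference miRNAs had a median GC content of 53.4%, beside 47.6% over the 326 tested miRNAs with a miRBase name. Across the 8, GC content and log2 fold change had a Pearson r of -0.74 and a Spearman rho of -0.73, and across the 326 the values were -0.16 and -0.22; miRNAs of a library share its depth and are not independent. The letters CCCU were found in mmu-miR-423-3p and mmu-miR-484 and in 10.7% of the 326, and GGAG in 0 of the 8 and in 9.82%.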
